A study of Homo sapiens with 8 samples.

Results

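The genes that mark and license replication origins were followed across 8 RNA-seq libraries of human uveal melanoma (UVM) cells. The 10 genes were ORC1 to ORC6, CDC6, CDT1, GMNN and DBF4, chosen by symbol from the 19952 symbols listed, and all 10 had an FPKM value in every library. In 92.1 cells, APOBEC3B (A3B), a cytidine deaminase that acts on single-stranded DNA, was depleted by RNA interference with a short hairpin (group shA3B, control shCtrl). In MEL290 cells, A3B was expressed from a vector at a high level (group A3B OE, control NC). There were 2 libraries in each of the 4 groups. Both lines were transduced with lentivirus and selected with puromycin, and the methods describe an empty vector as the control in 92.1. What the NC cells carried is not given in the sources used here. The labels do not give which hairpin the sequenced cells carried, and no source says that the replicates were separate cultures, so the p-values below measure only the spread between these libraries. FPKM scales fragment numbers to transcript length and to the mapped fragments of a library, so levels can be set side by side between genes and between libraries. Such comparisons are approximate, since FPKM does not correct for GC content and its sum still differed between libraries.

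Replication origins are licensed late in mitosis and in G1. The origin recognition complex (ORC) binds DNA and, with CDC6 and CDT1, loads the MCM2-7 helicase onto it as an inactive double hexamer. Geminin, the product of GMNN, then binds CDT1 in S, G2 and M phase and keeps origins from being licensed again, and the kinase made of CDC7 and its activating subunit DBF4 phosphorylates the loaded helicase so that origins can fire. In dividing cells the transcripts of ORC1, CDC6, CDT1 and GMNN are known to vary over the cell cycle, as targets of the E2F factors, while the core subunits ORC2 to ORC5 vary less.

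Fold changes below are on the log2(FPKM + 1) scale, and a gene is called when its adjusted p is under 0.05. The targeted gene followed its labels. APOBEC3B was at 35.9 and 32.3 FPKM in shCtrl libraries and at 1.98 and 2.37 FPKM in shA3B libraries, a log2 fold change of -3.47 (standard error 0.15, limma with Benjamini-Hochberg adjustment, adjusted p = 2.4e-06). In MEL290 it was at 2.67 and 2.19 FPKM in NC and at 28.4 and 27.5 FPKM in A3B OE libraries, a log2 fold change of 3.08 (standard error 0.12, limma adjusted p = 0.00078). Depth, estimated roughly from the low FPKM values, lay between 17700000 and 31800000 fragments per library. Of the defining melanocyte genes, SOX10, TYR, MLANA, TYRP1 and DCT were at or near 0 in all 4 MEL290 libraries, with PMEL between 0.836 and 1.31 FPKM, whereas PMEL lay between 3777 and 4587 FPKM in 92.1. MEL290 kept MITF, at 13.7 to 19.6 FPKM, and held COL1A1 at 26.9 to 40.7 FPKM and PDGFRB at 16.4 to 19.9 FPKM. The epithelial keratin KRT18 was at 1251 and 1298 FPKM in NC and at 849 and 770 FPKM in A3B OE libraries, lower without overlap, and its part in the results on MEL290 was not tested. The leukocyte gene PTPRC, the endothelial gene PECAM1 and the epithelial gene EPCAM stayed at or under 0.475, 0.0631 and 0.0728 FPKM in all 8 libraries. CD68 ran from 14.5 to 35 FPKM in 92.1 and from 26.1 to 31.6 FPKM in MEL290.

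Levels of these genes differed widely between the control cells of the lines, and CDC6, CDT1 and GMNN were higher in 92.1 than in MEL290. The question of how the control cells of the 2 lines compare was answered in 1 limma fit over all 8 libraries, in which cell line and the kind of control cannot be told apart. Of the 10 genes, 6 were lower and 2 higher in NC than in shCtrl cells, where 40.1% and 34.8% of the 12697 genes tested were called lower and higher, so that most genes differed between the lines. For 7 of the 10 both NC libraries lay below both shCtrl libraries, as for 46.3% of all genes, and for 2 above, as for 40.7%. The median change was -1.17 on the log2 scale over the 10 genes and -0.07 over all genes tested. In bulk RNA, fewer cells in a phase that uses a gene and less RNA of that gene per cell cannot be told apart.

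In the main fit CDT1 had the largest difference, and GMNN and ORC1 came after it. Over the alternatives that kept all libraries, CDT1 ran from -3.14 to -2.23, GMNN from -2.35 to -2.17 and ORC1 from -2.32 to -1.78. CDT1, which brings MCM2-7 to ORC, was at 41.7 and 46.1 FPKM in shCtrl and at 4.42 and 5.41 FPKM in NC cells. GMNN, its inhibitor, was at 57.4 and 54.1 FPKM in shCtrl and at 9.71 and 12.5 FPKM in NC cells. The 2 groups were far apart for both genes, with log2 fold changes of -2.93 (standard error 0.11, limma adjusted p = 1.1e-07) and -2.24 (standard error 0.13, limma adjusted p = 8.6e-07). CDC6, the ATPase that acts with ORC in loading, differed less, with 26.4 and 28.4 FPKM in shCtrl, 14.5 and 13.3 FPKM in NC and a log2 fold change of -0.93 (standard error 0.17, limma adjusted p = 0.0011). DBF4 was at 20.3 and 18.5 FPKM in shCtrl and at 6.17 and 7.13 FPKM in NC cells (log2 fold change -1.42, standard error 0.17, limma adjusted p = 7.6e-05).

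The 6 ORC subunits did not share a direction between the lines. ORC1, the largest subunit and an ATPase, was at 7.56 and 8.58 FPKM in shCtrl and at 1.46 and 1.61 FPKM in NC cells, and ORC6, the smallest subunit, at 30.9 and 29.3 FPKM in shCtrl and at 9.85 and 10.4 FPKM in NC cells. Both were lower in NC cells, by a log2 fold change of -1.84 for ORC1 (limma adjusted p = 2.1e-06; -2.32 with a pseudocount of 0.1) and of -1.48 for ORC6 (limma adjusted p = 8.1e-06). ORC4 was at 7.45 and 7.03 FPKM in shCtrl and at 22.5 and 22.9 FPKM in NC cells, and ORC3 at 6.84 and 5.67 FPKM in shCtrl and at 15.2 and 13.3 FPKM in NC cells. These subunits were higher in NC cells, with log2 fold changes of 1.53 (limma adjusted p = 4.2e-06) and 1.08 (limma adjusted p = 0.00012). ORC2 and ORC5 were not called. ORC2 was at 7.18 and 5.86 FPKM against 7.13 and 8.51 FPKM, with a 95% interval of the log2 fold change from -0.09 to 0.55, and ORC5 at 10.3 and 9.81 FPKM against 8.66 and 8.2 FPKM, with an interval from -0.49 to 0.04.

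The order of the levels differed between the lines. In shCtrl cells GMNN was the highest at 55.8 ± 2.36 FPKM (SD, n = 2), followed by CDT1, ORC6, CDC6 and DBF4, each with libraries that did not overlap those of the next gene. ORC5 and ORC1 came next, and ORC4, ORC2 and ORC3, at 7.24, 6.52 and 6.26 FPKM on average, overlapped from each to the next. In NC cells the order began with ORC4 at 22.7 ± 0.234 FPKM, then ORC3 and CDC6, whose libraries overlapped, then GMNN and ORC6, which overlapped as well, and it ended with CDT1 at 4.91 ± 0.698 FPKM and ORC1 at 1.53 ± 0.108 FPKM. Within ORC, whose core subunits act as 1 complex, mean FPKM in NC cells ran from 1.53 for ORC1 to 22.7 for ORC4, and in shCtrl cells from 6.26 for ORC3 to 30.1 for ORC6. ORC1 was also the thinnest measurement, with an estimated 75 fragments in the library where it was lowest. ORC4 shares 431 bases with ACVR2A and 594 bases with MBD5 on the opposite strand, and MBD5 lay between 4.06 and 5.56 FPKM in 92.1 and between 14.3 and 16.3 FPKM in MEL290. Whether the counting used strand is not given in the sources used here, so reads from these shared stretches cannot be told apart.

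In MEL290, ORC1, CDT1, GMNN and DBF4 rose with A3B overexpression. These were 4 of the 10 genes, where 17.8% of the 11611 genes tested were called in either direction and 10.3% were called higher, and 0 of the 10 were called lower, against 7.49% of all genes. At an unadjusted p under 0.05 there were 5 of the 10, and 33.1% of all genes. For 7 of the 10 both A3B OE libraries lay above both NC libraries, as for 31.5% of all genes, and 0 lay below, as for 29.7% of all genes. Over the 10 genes the log2 fold changes had a median of 0.39, and over all genes tested one of 0.004.

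GMNN had a change of like size to that of ORC1. It was at 9.71 and 12.5 FPKM in NC and at 24.6 and 22.5 FPKM in A3B OE libraries, so both A3B OE values lay clear of the NC values. The log2 fold change was 1.03 (standard error 0.14, limma adjusted p = 0.0072), from a mean of 11.1 ± 1.99 to 23.5 ± 1.48 FPKM (SD, n = 2 each). The gene spans positions 24774931 to 24786099 of chromosome 6 in GRCh38, on the plus strand, with 7 exons in its canonical transcript.

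CDT1, the factor that geminin binds, moved the same way. It was at 4.42 and 5.41 FPKM in NC and at 8.63 and 8.48 FPKM in A3B OE libraries, with no overlap and with A3B OE libraries that nearly coincided. The log2 fold change was 0.70 (standard error 0.14, limma adjusted p = 0.021). Even so, CDT1 in A3B OE cells, at 8.55 ± 0.107 FPKM (SD, n = 2), stayed far below its 43.9 ± 3.08 FPKM in shCtrl cells of 92.1. CDT1 has 10 exons and spans positions 88803789 to 88809258 of chromosome 16, on the plus strand.

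Of the ORC subunits, ORC1 alone was called. It was at 1.46 and 1.61 FPKM in NC and at 3.7 and 3.61 FPKM in A3B OE libraries, which did not overlap. The log2 fold change was 0.88 (standard error 0.14, limma adjusted p = 0.011), and on this scale the added pseudocount of 1 understates the change of so low a gene, since with a pseudocount of 0.1 it was 1.20, when that of GMNN was 1.09. ORC1 has 17 exons and spans positions 52372829 to 52404423 of chromosome 1, on the minus strand.

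The remaining subunits gave no call. ORC6 was at 9.85 and 10.4 FPKM in NC and at 14.3 and 11.4 FPKM in A3B OE libraries (log2 fold change 0.31, 95% interval -0.02 to 0.64, limma adjusted p = 0.17), and ORC2 at 7.13 and 8.51 FPKM in NC and at 8.98 and 9.73 FPKM in A3B OE libraries (log2 fold change 0.23, interval -0.08 to 0.55, limma adjusted p = 0.27). For both genes the A3B OE libraries lay above the NC libraries, by little. ORC3 was at 15.2 and 13.3 FPKM against 12.8 and 14.8 FPKM, ORC4 at 22.5 and 22.9 FPKM against 22.7 and 21.6 FPKM, and ORC5 at 8.66 and 8.2 FPKM against 7.79 and 8.65 FPKM. These 3 subunits had log2 fold changes of -0.05, -0.04 and -0.03, with 95% intervals that together ran from -0.35 to 0.25, so a change of the size seen for ORC1 lies outside each of them.

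DBF4, the activating subunit of the CDC7 kinase, was at 6.17 and 7.13 FPKM in NC and at 10.9 and 10.4 FPKM in A3B OE libraries. The groups did not overlap, and the log2 fold change was 0.61 (standard error 0.12, limma adjusted p = 0.023). DBF4 (chromosome 7, 87876216 to 87909553, plus strand) shares 145 bases with SLC25A40 on the opposite strand, which was at 10.5 and 6.77 FPKM in NC and at 12.3 and 14.5 FPKM in A3B OE libraries. CDC6 was the least even gene between the A3B OE libraries. At 14.5 and 13.3 FPKM in NC and at 24 and 15.9 FPKM in A3B OE libraries it had a log2 fold change of 0.47 (standard error 0.19, limma adjusted p = 0.15), which was 0.18 with A3B OE replicate 1 left out and 0.75 with A3B OE replicate 2 left out, where it was called (limma adjusted p = 0.042).

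The calls in MEL290 depended on having both A3B OE libraries. The same genes stayed called without either NC library. Without either A3B OE library calls were lost, both among the 10 genes and over all genes, so the loss is not particular to the 10 genes. Across the 4 fits with a library left out, the log2 fold change stayed between 0.83 and 0.92 for ORC1, 0.86 and 1.19 for GMNN, 0.58 and 0.82 for CDT1 and 0.52 and 0.70 for DBF4. When genes with low FPKM were kept in the fit, ORC1 alone was called, and calls over all genes fell from 2065 to 915.

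**Figure D1:**
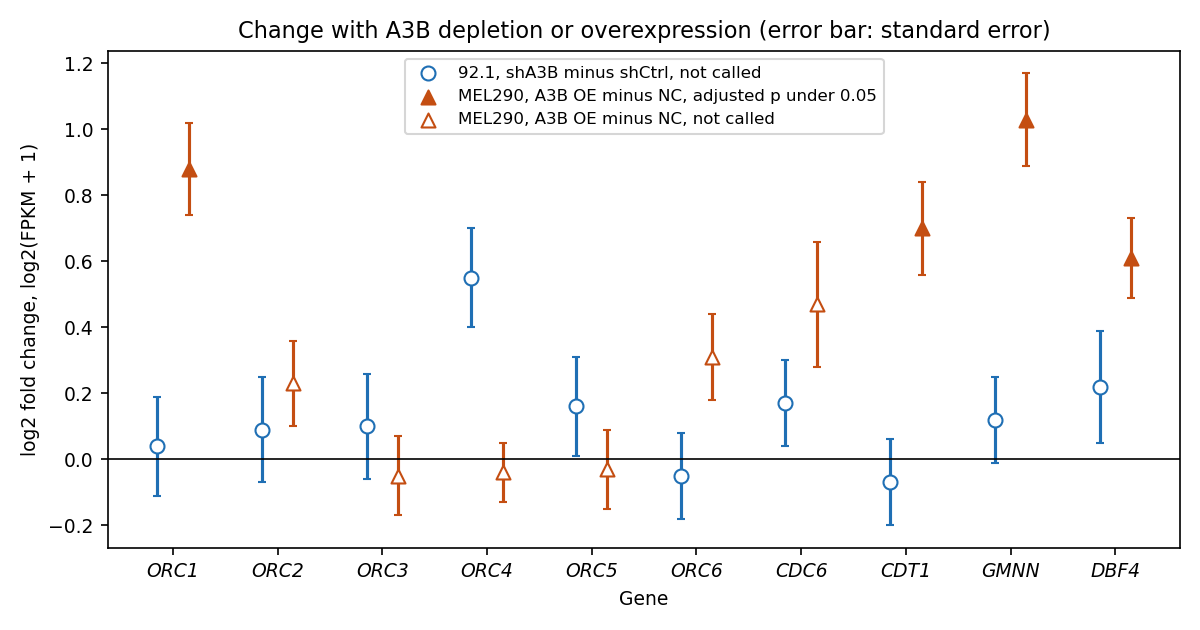
Log2 fold change of each gene on the log2(FPKM + 1) scale, for shA3B minus shCtrl in 92.1 (circles) and for A3B OE minus NC in MEL290 (triangles), with the standard error from limma. Filled symbols have an adjusted p under 0.05, which holds for ORC1, CDT1, GMNN and DBF4 in MEL290 and for none of the 10 genes in 92.1.

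The stretches before the start sites of ORC1, CDT1 and GMNN, which rose together, and of CDC6, the other loading factor, are shown with the letters that match an E2F-like motif in capitals. The motifs searched were TTGGCG and TTCCCGC on both strands, in windows from 250 bases before to 50 bases after each RefSeq start (GRCh38.p14). All 10 genes had a window. Each stretch holds the 150 bases before the start, 5′ to 3′ on the strand of the gene. GMNN has 2 starts, and the second is shown because the stretch before the first runs into an exon by 6 bases. The second start lies inside the gene, after the first exon, and the window of the first start holds no match:
ORC1 (chr1:52404424-52404573, minus strand): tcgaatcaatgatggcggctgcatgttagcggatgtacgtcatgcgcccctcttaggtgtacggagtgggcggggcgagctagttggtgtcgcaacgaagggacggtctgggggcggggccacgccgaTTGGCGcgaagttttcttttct
CDT1 (chr16:88803639-88803788, plus strand): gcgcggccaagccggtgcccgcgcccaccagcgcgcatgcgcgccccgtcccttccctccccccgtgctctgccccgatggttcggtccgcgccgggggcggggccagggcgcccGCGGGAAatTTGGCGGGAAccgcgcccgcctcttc
GMNN, second start (chr6:24775263-24775412, plus strand): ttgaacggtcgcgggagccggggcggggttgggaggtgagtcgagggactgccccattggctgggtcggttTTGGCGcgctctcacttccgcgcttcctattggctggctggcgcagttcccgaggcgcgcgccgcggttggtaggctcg
CDC6 (chr17:40287729-40287878, plus strand): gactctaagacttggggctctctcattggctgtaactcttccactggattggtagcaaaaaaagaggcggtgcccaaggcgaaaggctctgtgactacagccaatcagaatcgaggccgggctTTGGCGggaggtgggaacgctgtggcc

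Either motif was present in 6 of the 12 windows of these genes, since GMNN and ORC4 have 2 each, and in 14.5% of all 35116 promoter windows. The 6 windows belong to ORC1, ORC3, ORC6, CDC6, CDT1 and GMNN. ORC1 and GMNN, the genes with the largest changes in MEL290, had TTGGCG in these stretches, and CDT1 held TTGGCG run together with a reverse match of TTCCCGC, with a second such match upstream. DBF4, which rose too, had neither motif in its window but the letters TTTGAA, the core of the cell cycle element known as CHR, on the opposite strand, which are in 15.2% of all windows. ORC3 had a match of TTCCCGC, and ORC6 and CDC6 had TTGGCG. These genes were not called in MEL290, at log2 fold changes of -0.05, 0.31 and 0.47, so a match and a call did not go together in every gene. CCAAT, searched on both strands, was in 6 of the 12 windows and in 34.6% of all windows, and in ORC1 it shared bases with TTGGCG. A match is a string of letters in the reference, and no binding was measured in these libraries.

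In 92.1, depletion of A3B left 0 of the 10 genes called, where 0.00862% of the 11605 genes tested passed, a share that stands for APOBEC3B alone. At an unadjusted p under 0.05, 336 genes or 2.90% differed, 1 of the 10 among them. For 4 of the 10 both shA3B libraries lay above both shCtrl libraries, as for 15.3% of all genes, and 0 lay below, as for 13.3% of all genes. The median log2 fold change was 0.11, and 8e-05 over all genes tested.

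ORC4 was the gene with the unadjusted p under 0.05. It was at 7.45 and 7.03 FPKM in shCtrl and at 10.2 and 12 FPKM in shA3B libraries, which did not overlap. The log2 fold change of 0.55 (standard error 0.15, 95% interval 0.21 to 0.89) had an unadjusted p of 0.0047 and a limma adjusted p of 1. By its p it stood at rank 28 of 11605 genes, and it stayed between 0.44 and 0.65 with each library left out. ORC4 lies on chromosome 2 from 147930396 to 148021604 on the minus strand, and its neighbours on the opposite strand, ACVR2A and MBD5, were at 2.4 to 3.01 FPKM and at 4.06 to 5.56 FPKM in these libraries.

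The genes that rose in MEL290 had small changes here. GMNN was at 57.4 and 54.1 FPKM in shCtrl and at 59.1 and 62.1 FPKM in shA3B libraries (log2 fold change 0.12, 95% interval -0.17 to 0.40), and CDT1 at 41.7 and 46.1 FPKM against 42.1 and 41.1 FPKM (log2 fold change -0.07, interval -0.37 to 0.22). ORC1 was at 7.56 and 8.58 FPKM against 8.14 and 8.52 FPKM (log2 fold change 0.04, interval -0.29 to 0.38). These values overlapped between the groups for CDT1 and ORC1 and were slightly higher with shA3B for GMNN. DBF4 was at 20.3 and 18.5 FPKM in shCtrl and at 19 and 27.2 FPKM in shA3B libraries, with a log2 fold change of 0.22 that was -0.03 without shA3B replicate 2.

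The others had changes of like size. CDC6 was at 26.4 and 28.4 FPKM in shCtrl and at 30 and 31.7 FPKM in shA3B libraries (log2 fold change 0.17), ORC5 at 10.3 and 9.81 FPKM against 10.7 and 12 FPKM (0.16), and ORC6 at 30.9 and 29.3 FPKM against 29.6 and 28.4 FPKM (-0.05). CDC6 and ORC5 did not overlap between the groups, and the limma adjusted p was 1 for all 3. ORC2, at 7.18 and 5.86 FPKM against 6.59 and 7.36 FPKM, and ORC3, at 6.84 and 5.67 FPKM against 6.42 and 7.07 FPKM, had log2 fold changes of 0.09 and 0.10 with overlapping libraries.

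Whether A3B had the same effect in both lines was tested in 1 fit over the 8 libraries, which took A3B OE minus NC and subtracted shCtrl minus shA3B, so that higher A3B was set against lower A3B in each line. Of the 10 genes, ORC1 and GMNN had a greater effect in MEL290, 2 genes where 5.57% of the 12697 genes tested were called in either direction and 3.59% in this one. The difference of log2 fold changes was 0.92 for ORC1 (standard error 0.17, 95% interval 0.53 to 1.31, limma adjusted p = 0.022) and 1.14 for GMNN (standard error 0.18, interval 0.74 to 1.55, limma adjusted p = 0.014). DBF4, at 0.83 (limma adjusted p = 0.084), and CDT1, at 0.62 (limma adjusted p = 0.067), had intervals of 0.29 to 1.37 and 0.25 to 1.00 and were not called. CDC6 had a difference of 0.63 and ORC4 of 0.51 (limma adjusted p = 0.18 and 0.1), and for ORC2, ORC3, ORC5 and ORC6 it lay between 0.05 and 0.32.

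These differences were stable in size and not in their calls. With each library left out, ORC1 lay between 0.84 and 1.00 and GMNN between 0.98 and 1.31. Of these 8 fits, ORC1 passed in the 1 without shCtrl replicate 2, and GMNN was lost without shCtrl replicate 2, shA3B replicate 2 or either A3B OE library. DBF4 passed without shA3B replicate 1. With the replicate number as a block, GMNN remained called and ORC1 did not (adjusted p = 0.06). Cell line, vector and whether A3B was raised or lowered cannot be told apart in this comparison.

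Pairs of partners were also set against each other within a library. The ratio of GMNN to CDT1, the inhibitor to its target, was 1.38 and 1.17 in shCtrl and 1.4 and 1.51 in shA3B libraries. In MEL290 it was 2.2 and 2.32 in NC and 2.85 and 2.65 in A3B OE libraries. The ratio was higher in both perturbed groups, without overlap. In 92.1 the margin was small, from 1.38 in shCtrl to 1.4 in shA3B. A3B was lowered in 92.1 and raised in MEL290, so relative to A3B the ratio moved in opposite directions. The log2 differences were 0.20 in 92.1 and 0.29 in MEL290 (exact two-sided permutation test, p = 0.33 for each, the smallest that 2 libraries against 2 allow). The ratio of DBF4 to CDC7, the activating to the catalytic subunit of the kinase, was 2 and 2.29 in shCtrl, 2.08 and 2.59 in shA3B, 1.98 and 3.2 in NC and 2.58 and 2.38 in A3B OE libraries. It overlapped between the groups in both lines, with log2 differences of 0.12 (exact permutation p = 0.67) and -0.02 (exact permutation p = 1).

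The wider licensing pathway was read from 39 further genes, the MCM2-7 subunits, the factors that turn the loaded helicase on, partners of ORC, and regulators of the turnover and timing of licensing. In MEL290, 19 of the 37 tested were called higher with A3B OE and 0 lower, where 10.3% and 7.49% of all genes were called higher and lower. The median change was 0.51 on the log2 scale, against 0.004 over all genes. All 6 MCM2-7 subunits were among them, with changes from 0.56 to 0.96, as were 6 of 13 helicase activation genes, 1 of 4 ORC partners and 6 of 14 turnover and timing genes. Of the helicase activation genes, GINS1 and MCM10 passed by a small margin (limma adjusted p = 0.0489 and 0.049738). MCM10 was lost with a pseudocount of 0.1 (0.0528), with quantile normalization (0.067), with the replicate block (0.087) and without the filter on low FPKM (0.09). Its call was also lost with any 1 library left out, at log2 fold changes from 0.46 to 0.53. The largest rises were those of CCNA2 (cyclin A2, log2 fold change 1.06), CDC20 (an activator of the anaphase-promoting complex, 1.05), MCM2 (0.96), MCM3 (0.92) and CKS1B (a cofactor of the SKP2 ubiquitin ligase, 0.88), with limma adjusted p between 0.0027 and 0.005. CDC7, the catalytic partner of DBF4, at 3.11 and 2.22 FPKM in NC and 4.24 and 4.35 FPKM in A3B OE libraries, had a log2 fold change of 0.54 without overlap and was not called (limma adjusted p = 0.074).

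Among genes that control the amount of CDT1 protein, DTL, the substrate receptor through which CUL4 ligases degrade CDT1 in S phase, was called by a small margin (log2 fold change 0.48, limma adjusted p = 0.049993) that was lost with the replicate block (adjusted p = 0.069), with quantile normalization (0.06), without the filter on low FPKM (0.11) and with any 1 library left out (0.0541 to 0.2). SKP2, which also marks CDT1 for degradation, was not called (log2 fold change 0.58, limma adjusted p = 0.0532), but it passed with upper quartile scaling (0.042), when genes under 1 FPKM in any library were left out (0.049711), with all 8 libraries in 1 fit (0.0451) and without NC replicate 1 (0.0016). Nor was FZR1 called, the CDH1 activator of the anaphase-promoting complex, whose substrates include geminin and CDC6 (log2 fold change -0.16, limma adjusted p = 0.3). Protein levels were not measured in these libraries.

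Genes of the cell cycle outside this pathway moved with these rises. Leaving out the 10 genes and the 39 pathway genes, 21 of 32 tested genes of the S phase list that comes with Seurat were called higher with A3B OE (median log2 fold change 0.60), and 47 of 52 genes of its G2/M list (median 0.90), against 10.3% of all genes. Their part in the changes of ORC1, CDT1, GMNN and DBF4 was not tested. In 92.1, 0 of 38 genes of the licensing pathway, 0 of 33 of these S phase genes and 0 of 51 of these G2/M genes were called. Over all 11605 genes tested 0.00862% were called, so such counts of 0 say little. The medians were 0.03, 0.09 and 0.12, against 8e-05 over all genes. Without overlap, 8, 10 and 21 of them lay higher with shA3B and 3, 1 and 4 lower, against 15.3% and 13.3% of all genes.

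Between the control groups the pathway lay mostly on the side of CDT1, GMNN and ORC1. Of 38 genes tested, 29 were lower and 1 higher in NC than in shCtrl cells, where 40.1% of all genes were called lower and 34.8% higher. The median was -1.42 on the log2 scale, against -0.07 over all genes, and the MCM2-7 subunits ran from -2.73 to -1.45. Besides CDK2, the largest falls on this scale were those of MCM3 (-2.73), CCNF (-2.66), MCIDAS (-2.65) and RECQL4 (-2.61). CCNF is cyclin F, which marks CDC6 for degradation, MCIDAS is a geminin relative and RECQL4 is a helicase of origin firing. MCIDAS, counted among the 29, was at 7.38 and 7.59 FPKM in shCtrl and at 0.456 and 0.254 FPKM in NC libraries. With NC levels under 1 FPKM, its value and its place among these falls depend on the pseudocount of 1. CUL4B, a scaffold of the ligase that degrades CDT1, was the 1 gene called higher, with a log2 fold change of 1.42, and it shares 10065 bases with MCTS1 on the opposite strand. CDK2 had the largest value, -4.68, from 401 and 470 FPKM to 17.1 and 14.9 FPKM. It shares 6009 bases with PMEL on the opposite strand, which was at 4316 and 4390 FPKM in shCtrl and under 1 FPKM in NC libraries, so the part of CDK2 in this value cannot be told apart from that of PMEL.

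Within the lines, the 10 genes fell into patterns that differed by subunit. After centring log2(FPKM + 1) on the mean of each line, ORC1 followed CDT1 and GMNN across the 8 libraries (Pearson r = 0.97 for each), and CDT1 followed GMNN (r = 0.95). ORC3 followed ORC5 (r = 0.81) and ORC4 followed ORC5 (r = 0.78), with r = 0.41 between ORC3 and ORC4. ORC1 had r of -0.25, -0.01 and -0.14 with ORC3, ORC4 and ORC5, but 0.78 with ORC6 and 0.61 with ORC2. These are descriptions over 8 libraries that share 2 lines and the A3B groups, so any genes that differed between NC and A3B OE follow each other. Among 10020 genes with at least 1 FPKM in every library, those most like ORC1 were PLIN2 (r = 0.997) and CHD3 (r = 0.996), those most like CDT1 were H1-10 (r = 0.996) and RRNAD1 (r = 0.993), those most like GMNN were UBE2T (r = 0.999) and SUN1 (r = 0.992), and those most like DBF4 were POLD3 (r = 0.985) and MCM10 (r = 0.982). PLIN2, which coats lipid droplets, was at 39.7 and 46.7 FPKM in NC and 115 and 112 FPKM in A3B OE libraries, and UBE2T, a ubiquitin-conjugating enzyme of the Fanconi pathway, at 10.7 and 12.9 FPKM and at 20.1 and 19 FPKM.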

How the data were processed

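RNA-seq libraries of 92.1 cells (shCtrl, shA3B) and MEL290 cells (NC, A3B OE), 2 per group, were grouped by their sample titles. In the deposited files each gene symbol has 1 FPKM value in a library, which the authors calculated with Cufflinks over Ensembl release 75 genes after aligning reads to GRCh38 with STAR. FPKM is not a count, so no count test was run, and the authors' Cuffdiff test, which starts from reads, was not used here. Read depth is not given and was estimated only roughly.

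Values were analysed as log2(FPKM + 1). A gene entered a fit when 2 or more of its libraries reached an FPKM of 1, and was tested with limma 3.58.1 (lmFit, eBayes with trend) in R 4.3.3, two-sided, with Benjamini-Hochberg adjustment over all genes tested and a threshold of 0.05. In simulated data with known changes, fits of 1 line made a larger share of false calls than this threshold allows. Each line was fitted alone, and all 8 libraries were fitted together for the difference of A3B effects and for NC against shCtrl. A gene's FPKM ratio was tested by exact permutation. Gene positions, overlaps, GC content and transcript length came from GENCODE release 44 (GRCh38), where all 10 genes and 19033 of 19952 symbols matched, and promoter windows from RefSeq (GRCh38.p14).

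The 10 genes and the lists were chosen with earlier results of these data known. The named genes were APOBEC3B, the 10 genes, up to 5 called pathway genes with the largest change in each direction, CDC7, DTL, SKP2 and FZR1, and, for each of the 10 genes called in MEL290, the 2 genes with the most similar pattern. The cell cycle lists (Seurat 5.3.0, without the 10 genes and the pathway lists), the promoter motifs and the printed promoter stretches were chosen after the values were seen. Alternatives were a fit in limma with no trend, a pseudocount of 0.1, other filters on low FPKM, upper quartile and quantile scaling, the replicate number as a block, a correction of each library for GC content and length of transcripts, all 8 libraries in 1 fit, an opposite sign for the difference between lines, and each library left out in turn. Same-numbered libraries deviated from their group means with a correlation of 0.19 in 92.1 and -0.03 in MEL290, so the numbers were not taken to pair the libraries.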

Additional observations from a re-analysis of the deposited data

Results flagged for a closer look

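The effect of A3B differed between MEL290 and 92.1 for 2 of the 10 genes in a test of the difference itself (limma over 8 libraries, higher A3B minus lower A3B in each line). Of the 12697 genes tested, 5.57% were called in either direction and 3.59% in this one. With a library left out, the call of GMNN was lost in some fits, and that of ORC1 in all but the fit without shCtrl replicate 2. The call of ORC1 was also lost with the replicate block (limma adjusted p = 0.06). Cell line, vector and whether A3B was raised or lowered cannot be told apart here. GMNN had a difference of log2 fold changes of 1.14 (adjusted p = 0.014), with a change from NC to A3B OE of 1.03 and from shCtrl to shA3B of 0.12. ORC1 had a difference of 0.92 (adjusted p = 0.022), with changes of 0.88 and 0.04. In MEL290 both genes were higher in both A3B OE libraries, and in 92.1 the libraries of ORC1 overlapped between the groups.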

How the results depend on the processing

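The call in MEL290 rested on few libraries, with 2 per group. The number of the 10 genes called there was 4, and it was 1 with no filter on low FPKM. That number also fell when an A3B OE library was left out, where calls over all genes fell as well. In the difference between the lines it was 2, and 1 with the replicate block. It was 3 with upper quartile scaling, with the GC and length trend removed or with the opposite sign. With 1 library left out, fewer genes were called over all genes and the number was no higher than 2. In 92.1 it was 0 under every alternative run, and between the control groups 8, or 9 with the GC and length trend removed. With the replicate block, MEL290 kept its 4 called genes. Over all genes, the block called 37 genes in 92.1 against 1, and 312 against 707 in the difference between the lines. Without the filter on low FPKM, 915 genes were called in MEL290 against 2065, and 0 in 92.1, where APOBEC3B had an adjusted p of 0.34 (limma). Removal of the GC and length trend turned the MEL290 split of 1195 higher and 870 lower genes into 1219 and 1281. The causes were not tested.

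Most reversals were of values near 0. FZR1 between the control groups was not, since it was called at -0.53 (limma adjusted p = 0.0028) in the main fit. With the GC and length trend removed, 92.1 gave ORC3 -0.0003, CDT1 0.03, CDC7 -0.003 and FZR1 0.04, the control groups gave ORC2 -0.03 and FZR1 0.05, and the difference gave ORC3 -0.09, which was -0.02 with quantile normalization. With the opposite sign, where shA3B minus shCtrl is subtracted, the difference was by construction another quantity, 6.55 for APOBEC3B, -0.15 for ORC3, -0.58 for ORC4 and -0.20 for ORC5. With each library left out, 92.1 ranges were -0.04 to 0.12 for ORC1, -0.04 to 0.21 for ORC2, -0.02 to 0.21 for ORC3, -0.03 to 0.47 for DBF4, -0.05 to 0.25 for CDC7, -0.22 to 0.05 for SKP2 and -0.18 to 0.04 for FZR1, and MEL290 ranges were -0.15 to 0.05 for ORC3, -0.07 to 0.0002 for ORC4 and -0.10 to 0.03 for ORC5. For ORC3 in the difference the range was -0.07 to 0.17. The log2 difference of the DBF4 to CDC7 ratio ran from -0.04 to 0.28 in 92.1 and from -0.37 to 0.32 in MEL290, where it was 0.07 with a pseudocount of 1, and that of GMNN to CDT1 from 0.08 to 0.31 and from 0.23 to 0.34.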
